A study of Mus musculus with 3 samples.

Results

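Adult mouse testis held a population of barcodes with few transcripts that were rich in the messages of 5 acrosomal and secretory genes of round spermatids. They are described here as 2092 barcodes of the 33038 deposited, and 13877 barcodes lay in the same range of depth. They were selected on their counts: 1000 to fewer than 3000 unique molecular identifiers (UMIs, each standing for 1 captured RNA molecule), at least 500 genes, at most 10% of UMIs from mitochondrially encoded genes, and at least 5 UMIs summed over Spam1, Pdilt, Zp3r, Spaca1 and Spaca5. Because the rule used these counts, the levels of the 5 genes are a description, and no gene carries a test. The series compared testes of wildtype mice with testes of mice carrying a conditional knockout of Tex10, all adult and of strain C57BL/6N. Wildtype replicates 1 and 2 (below WT1 and WT2) came from 1 mouse each, and the knockout library pooled cells of 2 mice, so it gives no spread between knockout animals. The labels name neither the Cre driver nor the deleted part of Tex10. The selected barcodes numbered 939 in WT1, 645 in WT2 and 508 in the knockout library, and values given in threes below follow that order. Their median depth was 1813, 1696 and 2347 UMIs over 1200, 1154 and 1456 genes.

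A round spermatid is a haploid cell that builds the acrosome, a secretory vesicle derived from the Golgi apparatus that covers the sperm nucleus. Messages of secreted and membrane proteins are translated on the endoplasmic reticulum, to which a hydrophobic stretch near the start of the nascent protein (a signal peptide or a first membrane span) directs them, while messages of cytosolic proteins are translated on free ribosomes. As spermatids elongate, most of the cytoplasm is shed as residual bodies and cytoplasmic droplets, and Sertoli cells take up the residual bodies. Malat1, Kcnq1ot1 and Tug1 are long non-coding RNAs known mainly from the nucleus. The comparison set was round spermatids with at least 10000 UMIs, 2262 barcodes in clusters named from marker genes, and the question was which transcripts the shallow barcodes held in other proportions than these cells.

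The coding starts below show the property used to sort genes, and each stretch is the first 35 codons. Capitals mark the 10 codons whose residues have the highest mean hydropathy on the Kyte-Doolittle scale. Spam1, a hyaluronidase, and Pdilt, a testis-specific relative of protein disulphide isomerase, belong to the selection rule. Acrv1, Tmem190 and Izumo1, proteins of the acrosome or its membrane, do not. Meig1, a protein needed for assembly of the sperm tail, stands for the genes without a hydrophobic stretch. Sequences and gene positions are those of GENCODE M21 on GRCm38.
Spam1: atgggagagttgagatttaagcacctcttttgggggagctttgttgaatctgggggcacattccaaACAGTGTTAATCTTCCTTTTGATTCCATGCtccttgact
Pdilt: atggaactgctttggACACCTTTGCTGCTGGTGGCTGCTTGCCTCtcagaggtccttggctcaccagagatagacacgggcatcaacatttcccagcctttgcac
Acrv1: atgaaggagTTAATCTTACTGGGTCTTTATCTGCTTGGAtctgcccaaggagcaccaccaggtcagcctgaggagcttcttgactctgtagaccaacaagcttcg
Tmem190: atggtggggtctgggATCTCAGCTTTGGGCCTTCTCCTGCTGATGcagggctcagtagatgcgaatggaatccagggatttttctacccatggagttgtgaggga
Izumo1: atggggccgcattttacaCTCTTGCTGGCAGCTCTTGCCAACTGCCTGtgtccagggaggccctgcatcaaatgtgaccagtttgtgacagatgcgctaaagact
Meig1: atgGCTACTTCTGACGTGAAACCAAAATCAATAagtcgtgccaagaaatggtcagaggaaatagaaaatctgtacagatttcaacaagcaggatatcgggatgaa
The genes lie at chr6:24791188-24801048 (plus strand), chr7:119486587-119523489 (minus strand), chr9:36693220-36698843 (plus strand), chr7:4782937-4784341 (plus strand), chr7:45621811-45628823 (plus strand) and chr2:3409043-3422648 (minus strand). The marked stretches reach a mean hydropathy of 2.76 in Spam1, 2.32 in Pdilt, 2.52 in Acrv1, 2.60 in Tmem190 and 2.34 in Izumo1, and -0.47 in Meig1. A gene was said to have a hydrophobic start where this value was at least 2.0, an internal hydrophobic stretch where it was not but 19 residues anywhere averaged at least 1.6, and no hydrophobic stretch otherwise. All 5 selecting genes have a hydrophobic start, so they were left out of every ratio to round spermatids and of every share of UMIs given for a class of genes.

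The 5 selecting genes set the population apart by construction, and their levels in counts per 1000000 UMIs (CPM) show by how much. Spam1 stood at 743, 679 and 624 CPM in the selected barcodes, against 136, 165 and 134 CPM in round spermatids. Pdilt stood at 930, 1001 and 931 CPM, against 151, 178 and 189 CPM. Spaca1, which encodes an acrosomal membrane protein needed for the shape of the sperm head, gave most of the marker UMIs, at 4680, 4175 and 3268 CPM, against 824, 844 and 802 CPM. Zp3r, a zona pellucida binding protein of the acrosomal matrix, stood at 533, 541 and 376 CPM, against 88.7, 110 and 90.8 CPM. Spaca5, a lysozyme-like acrosomal protein, stood at 432, 447 and 361 CPM, against 62.7, 62.8 and 57.1 CPM. For each of the 5 genes the selected barcodes were above the round spermatids in all 3 libraries. The sum of the 5 was 7318, 6843 and 5561 CPM in the selected barcodes, 1262, 1360 and 1273 CPM in round spermatids, 55.5, 53.3 and 51.2 CPM in elongating spermatids, and 67.8, 59.2 and 53.2 CPM in spermatogonia, which should lack these messages. The median barcode held 12, 11 and 11 marker UMIs, and 18.4%, 16.3% and 20.9% of barcodes held at least 1 UMI of each of the 5 genes. Just inside the threshold, 83, 66 and 84 barcodes held 5 marker UMIs, and just outside it 110, 87 and 180 held 4. The knockout library had the most barcodes just outside the threshold and the fewest selected ones. It also had the most shallow barcodes, 6230 against 4183 in WT1 and 3464 in WT2.

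The rate of the 5 messages among all UMIs describes the same selection, since the rule alone puts every selected barcode above the median round spermatid. The median round spermatid held 1.19, 1.36 and 1.32 marker UMIs per 1000 UMIs, and the median selected barcode 7.05, 6.42 and 4.91. Of the round spermatids, 3 of 617, 3 of 955 and 6 of 690 held at least 3 per 1000. When round spermatids were thinned to 2000 UMIs, 12.5%, 18.6% and 14.6% of them held 5 marker UMIs, and 0 of 739, 791 and 1195 elongating spermatids did, which allows shares of up to 0.498%, 0.465% and 0.308%. Spermatogonia and spermatocytes so thinned gave 0 as well. Shallow barcodes of at least 2000 UMIs thinned in the same way gave 37.8%, 23.9% and 12.6%. In the knockout library the last share was below that of its thinned round spermatids, and in WT1 and WT2 it was above.

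Markers of cell types were checked in the summed counts. The 13 round spermatid markers summed to 6060, 6085 and 4712 CPM, against 3145, 3487 and 3339 CPM in round spermatids and 1591, 1438 and 1384 CPM in the other shallow barcodes, with no marker at 0. Acrv1 and Izumo1 are among those markers. The 14 elongating spermatid markers summed to 46818, 45956 and 40370 CPM, near the 37307, 28042 and 43455 CPM of round spermatids and far below the 295890, 302710 and 275830 CPM of elongating spermatids. The 10 Sertoli cell markers summed to 396, 497 and 416 CPM, above round spermatids (37.8, 45.7 and 49.6 CPM) and below the other shallow barcodes (3053, 2335 and 1625 CPM). Of these markers 1, 1 and 2 were at 0 (Amh in WT1, Gata4 in WT2 and both in the knockout set). The 5 red blood cell markers summed to 0.566, 3.47 and 3.35 CPM, with 4, 3 and 3 of them at 0. The 8 macrophage markers summed to 46.4, 36.4 and 52.8 CPM, with 2, 3 and 2 of them at 0, against 15.5, 10.7 and 18.4 CPM in round spermatids. The 8 Leydig cell markers summed to 26.6, 25.1 and 42.7 CPM, with 1, 2 and 0 of them at 0, against 6.12, 6.32 and 7.01 CPM. The 10 early spermatocyte markers summed to 230, 282 and 305 CPM, against 152, 166 and 150 CPM in round spermatids. The 11 spermatogonial markers summed to 78.2, 77.1 and 61.2 CPM, against 48.3, 45.3 and 43.1 CPM. The 10 late spermatocyte markers were lower, at 809, 908 and 1086 CPM against 1513.5, 1466.5 and 1189.6 CPM. Markers of the remaining cell types are not given here. The part of RNA of Sertoli cells, macrophages, Leydig cells, spermatogonia and spermatocytes in the results below was not tested. Cell barcodes shared between libraries were few: 1 selected barcode sequence was shared by WT1 and the knockout library and none by the other pairs.

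Levels of genes that the rule did not use differed with the number of marker UMIs. Acrv1 stood at 108, 90.4 and 103 CPM in shallow barcodes with 0 marker UMIs, at 694, 770 and 522 CPM in those with 5, and at 2670, 2512 and 2178 CPM in those with 20 or more. Tmem190 went from 183, 150 and 162 CPM over 1105, 895 and 594 CPM to 3030, 2898 and 2606 CPM. Malat1 went from 737, 568 and 625 CPM over 1410, 2193 and 1509 CPM to 6028, 5632 and 3613 CPM. All 3 genes were higher at 20 or more marker UMIs than at 5 in every library. Meig1 stood at 7192, 6219 and 7013 CPM at 0 marker UMIs, at 7595, 6981 and 6734 CPM at 5, and at 4139, 4199 and 4452 CPM at 20 or more. It was lowest at 20 or more in every library, but from 0 to 5 it was higher in WT1 and WT2 and lower in the knockout library. Ldhc, the sperm form of lactate dehydrogenase, lay between 6276 and 8305 CPM at 0, 5 and 20 or more marker UMIs. Barcodes with more marker UMIs were also deeper, with a median of 2285, 2128 and 2437 UMIs at 20 or more against 1595, 1578 and 2390 UMIs at 5, and the knockout library changed least in depth.

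**Figure D1:**
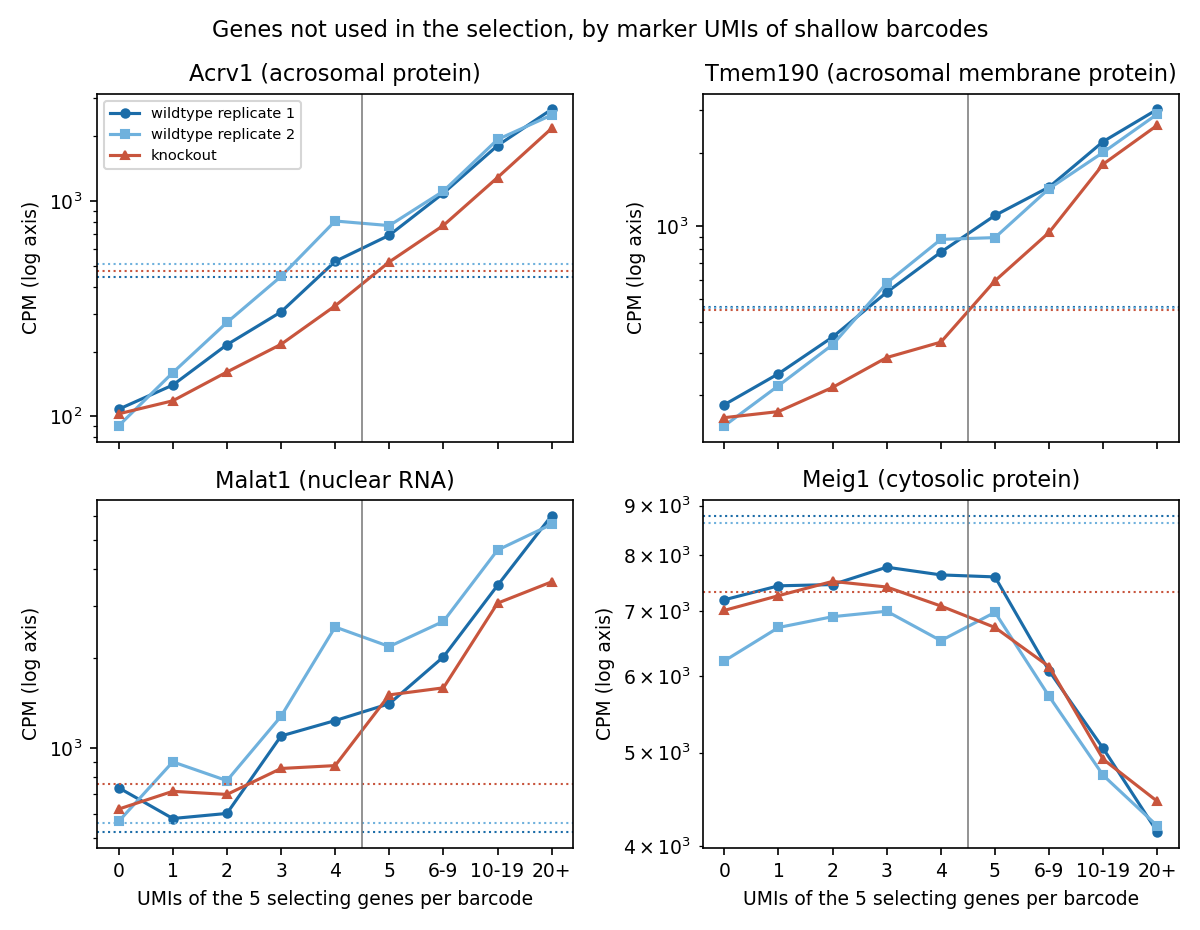
Level of Acrv1, Tmem190, Malat1 and Meig1 (CPM, log axis) in shallow barcodes by the number of UMIs of the 5 selecting genes, 1 line per library; the grey line marks the threshold of 5 UMIs and dotted lines mark round spermatids of the same library. Both acrosomal genes stand above the round spermatid lines from 5 marker UMIs on in the knockout library and already from 4 in the wildtype libraries. Malat1 stands above them at every step in the wildtype libraries and from 3 marker UMIs on in the knockout library. Meig1 stands below them at every step except 2 and 3 marker UMIs in the knockout library.

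Against round spermatids, 663 of 5978 genes were at least 2-fold higher in all 3 libraries (11.1%) and 28 were at least 2-fold lower (0.468%), together 691 or 11.6%. Each ratio was taken within a library on log2(CPM + 1), and a gene was read where its mean was at least 20 CPM. Genes with a hydrophobic start were 144 of 674 higher and 3 lower, which is 21.4% higher against 11.1% of all genes read. Those with an internal stretch were 124 of 875 higher, or 14.2%, and those with none 280 of 3573, or 7.84%. The median log2 ratio was 0.48 for a hydrophobic start, 0.20 for an internal stretch, -0.18 for none and 0.00 for all genes. The median of the first class lay above that of the last by 0.79, 0.82 and 0.43 in the 3 libraries, 0.68 ± 0.22 (SD, n = 3), and the knockout library had the smallest difference.

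Without the lists of acrosomal and surface proteins the difference was 0.65. Genes outside these lists that move with the selecting genes stayed in, and their part was not tested. The ratio also differed with the hydropathy of the start. Genes whose most hydrophobic start stretch averaged under 2.0 had median log2 ratios between -0.16 and -0.08 in 4 steps of hydropathy. The median rose to 0.27 from 2.0 to 2.5, to 0.59 from 2.5 to 3.0, and to 0.63 from 3.0 on. Of the 249 genes from 2.5 to 3.0, 60 were past the fold as higher and none as lower. The share of genes past the fold as higher lay between 8.69% and 9.63% below 2.0 and between 18.9% and 24.1% above. Coding length moved with the ratio too. Among genes with no hydrophobic stretch the median was -0.32 under 600 coding bases and 0.37 from 2400 on, and among genes with a hydrophobic start it went from 0.23 to 0.94. In each of 4 steps of length the genes with a hydrophobic start had the higher median.

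**Figure D2:**
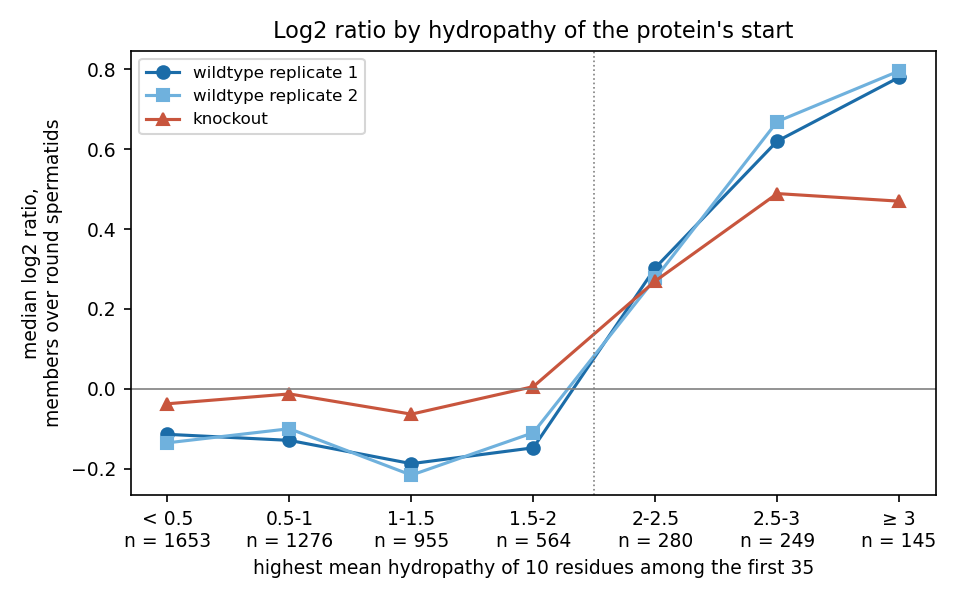
Median log2 ratio of the selected barcodes over round spermatids (vertical axis) for genes grouped by the highest mean hydropathy of 10 residues among the first 35 (horizontal axis, with the number of genes), 1 line per library; the dotted line marks 2.0. Medians stay between -0.22 and 0.01 below 2.0 and lie between 0.27 and 0.80 above it.

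The difference between the classes had the same sign against each kind of reference tried, and its size varied. The round spermatids fell into 7 clusters, which gave 18 pairs of a cluster and a library with at least 20 barcodes. The difference between the classes was positive in all 18, from 0.26 to 1.29. It was smallest, 0.26, against the knockout cluster that was richest in the protamine message Prm2 (33127 CPM), and 0.52 and 0.51 against the cluster of WT1 and WT2 that was. Against elongating spermatids it was positive in 11 of 11 pairs, from 0.39 to 0.73. Against shallow barcodes with 0 marker UMIs it was 0.53 ± 0.092 (SD, n = 3). Against the 12 round spermatids with at least 3 marker UMIs per 1000, a set chosen after seeing the data, it fell to 0.28 ± 0.22 (SD, n = 3), ranging from 0.057 to 0.493, and 167 genes were past the fold.

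Read per barcode, most selected barcodes exceeded the round spermatids. After thinning to 1000 UMIs, the median barcode drew 13.6%, 13.3% and 11.8% of its UMIs from genes with a hydrophobic start, the selecting genes left out. Round spermatids drew 9.4%, 9.7% and 9.4%, other shallow barcodes 9.0%, 9.2% and 8.8%, and elongating spermatids 5.6%, 5.6% and 5.8%. Without thinning WT1 and WT2 gave 13.6% and 13.4%. The lowest 10% of the selected barcodes lay below 10.4%, 10.1% and 8.8%, and the highest 10% of round spermatids lay above 10.9%, 10.9% and 10.8%, so the sets overlapped, most in the knockout library.

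**Figure D3:**
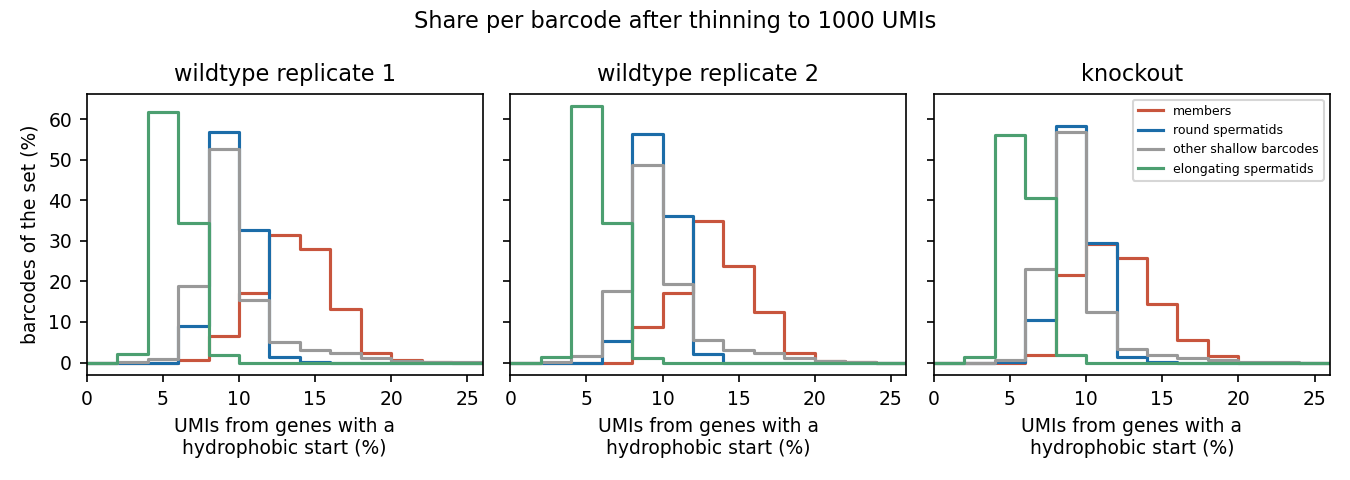
Share of a barcode's UMIs that came from genes with a hydrophobic start, after thinning to 1000 UMIs (horizontal axis, %), as the percentage of the barcodes of each set (vertical axis), 1 panel per library. The selected barcodes (members) lie to the right of round spermatids, with medians of 13.6%, 13.3% and 11.8% against 9.4%, 9.7% and 9.4%.

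Acrosomal genes were high as a group. In this and the later paragraphs a value after ± is the SD over the 3 libraries. Of 30 genes read on the list of acrosome content and membrane, the selecting genes left out, 12 were past the fold as higher, where 11.1% of all genes were, and none as lower, with a median log2 ratio of 0.93. Tmem190 stood at 2153, 1880 and 1544 CPM against 462, 457 and 448 CPM in round spermatids, a log2 ratio of 2.01 ± 0.22 (SD, n = 3). Izumo1, the sperm protein that binds the egg receptor Juno, stood at 774, 737 and 590 CPM against 161, 170 and 190 CPM (2.00 ± 0.33). Acrv1 stood at 1763, 1678 and 1213 CPM against 445, 511 and 471 CPM (1.69 ± 0.31). For these genes every selected set exceeded every round spermatid set. Acrbp, which binds the protease proacrosin, had a log2 ratio of 1.52 ± 0.076, and Spaca6, Spaca7, Zpbp, Eqtn, Lyzl1, Prss21, Tmem81 and Cd46 lay between 1.19 and 2.53. Cd46 varied most, at 163, 216 and 70.0 CPM. Not all secreted proteins shared this: Crisp2, a cysteine-rich secretory protein and the list's most abundant gene, stood at 1715, 1636 and 1783 CPM against 2633, 2655 and 2387 CPM, a log2 ratio of -0.58 ± 0.14 that did not pass the fold. Spaca9, which has no hydrophobic stretch, had a log2 ratio of -0.47 ± 0.23, and Dkkl1 one of 1.05 ± 0.14 that was under 1 in a library; neither passed.

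Proteins of the sperm surface gave a divided picture. Of 23 genes read on the list of ADAM proteins, maturation proteases and GPI-anchored proteins, 9 were past the fold as higher, where 11.1% of all genes were, and none as lower, with a median log2 ratio of 1.17. Adam2, the fertilin beta subunit, stood at 556, 508 and 508 CPM against 160, 160 and 133 CPM (1.79 ± 0.13). Dpep3, a GPI-anchored dipeptidase, stood at 459, 501 and 545 CPM against 145, 154 and 145 CPM (1.75 ± 0.13). Ly6k, a GPI-anchored protein needed for sperm migration, had a log2 ratio of 1.59 ± 0.13. Adam3 and Adam5, whose products also carry a hydrophobic start, went the other way without passing the fold. Adam3 stood at 265, 271 and 320 CPM against 563, 598 and 552 CPM (-1.0 ± 0.19), and Adam5 had a log2 ratio of -0.98 ± 0.097. Lypd4, the list's most abundant gene in round spermatids, had one of -0.27 ± 0.14.

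Part of the folding machinery of the endoplasmic reticulum was higher. Of 27 genes read, 8 were past the fold as higher, where 11.1% of all genes were, and 1 as lower, with a median log2 ratio of 0.72. Against shallow barcodes with 0 marker UMIs the median of the list was 0.35. Clgn, the testis chaperone calmegin, stood at 1186, 1086 and 1154 CPM against 345, 356 and 337 CPM (1.72 ± 0.098). Hsp90b1, the chaperone of the Hsp90 family in the reticulum, stood at 576, 492 and 717 CPM against 159, 151 and 128 CPM (2.01 ± 0.41). Pdia3, a disulphide isomerase, had a log2 ratio of 1.91 ± 0.26, Rpn1, a subunit of the oligosaccharyltransferase, one of 1.84 ± 0.24, and Calr, Canx, Hspa5 and Pdia6 lay between 1.31 and 1.59. Hspa5, the main chaperone of the Hsp70 family there, stood at 322, 260 and 456 CPM in the selected barcodes and at 201, 340 and 272 CPM in shallow barcodes with 0 marker UMIs, so WT2 had the order reversed. The gene past the fold as lower was Spcs1, a subunit of the signal peptidase, at 304, 317 and 317 CPM against 735, 764 and 684 CPM (-1.22 ± 0.095). Its partner Spcs2 had a log2 ratio of 0.36 ± 0.29 and Dad1, another subunit of the oligosaccharyltransferase, one of 0.59 ± 0.056, and neither passed. Ost4, Sec61b and Sec61g, small subunits of the oligosaccharyltransferase and the translocon, were below round spermatids in all 3 libraries without passing the fold.

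Ion channels and carriers of sperm were the other high membrane group. Of 20 genes read, 8 were past the fold as higher, where 11.1% of all genes were, and none as lower, with a median log2 ratio of 0.95. Slc22a16, a carnitine carrier, stood at 686, 779 and 664 CPM against 228, 256 and 208 CPM (1.62 ± 0.047). Catsper3, a pore subunit of the sperm calcium channel, stood at 617, 707 and 481 CPM against 157, 191 and 188 CPM (1.73 ± 0.33). Its partner Catsper4 was not past the fold, with a log2 ratio of 0.27 ± 0.15. Catsperb, Catsperg2, Kcnu1, Slc9c1, Slco6c1 and Slco6d1 had log2 ratios between 1.23 and 2.18.

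The other protein lists had medians near or below 0, apart from the protamine list. Of all genes 11.1% were past the fold as higher and 0.468% as lower. On the lists of 10 to 17 genes, 0 or 1 gene past the fold as higher is near that share. The lists of 79, 35 and 29 genes, with 2, 1 and 1, lay below it. Of 79 cytosolic ribosomal protein genes read, 2 were past the fold as higher and none as lower, with a median of -0.46. The 2 were Rpl10 (2.85 ± 0.065) and Rpl14 (2.06 ± 0.18). Both have near-identical copies, and the part of reads split among copies was not tested. Of 35 axoneme genes, 1 was higher (Dnah3, a dynein heavy chain, 1.78 ± 0.22), and the median was -0.29. Meig1 stood at 5271, 5150 and 5442 CPM against 8789, 8642 and 7334 CPM, a log2 ratio of -0.64 ± 0.18. Of 17 fibrous sheath and outer dense fibre genes, 1 was higher (Calm2, a calmodulin gene) and the median was -0.43. None of 17 glycolytic genes passed, with a median of -0.27, and Ldhc had a log2 ratio of -0.05 ± 0.17. Of 16 chromatoid body and RNA-binding protein genes, Piwil1, a piRNA-binding protein, was higher, and the median was -0.27. Ybx3, which binds stored messages of spermatids, stood at 818, 897 and 1053 CPM against 2028, 2071 and 2023 CPM (-1.15 ± 0.19) and was short of the fold in a library. Of 29 nuclear-encoded respiratory genes Cycs was higher and the median was -0.41, and of 11 kinases of the Tssk family and their partners Tssk5 was higher and the median was -0.30. None of 10 protamine, transition protein and spermatid histone genes passed. Their median was 0.34, 0.66 and -0.14.

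**Figure D4:**
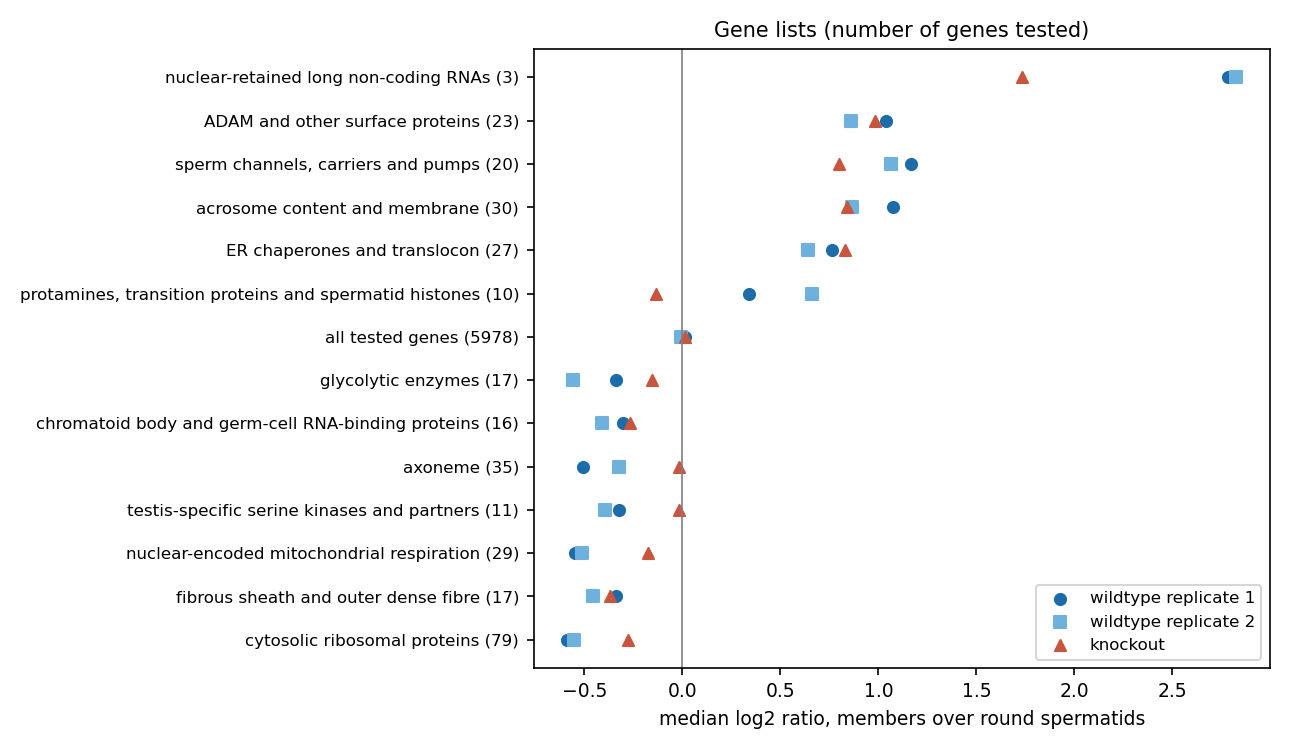
Median log2 ratio of the selected barcodes over round spermatids (horizontal axis) for the genes read on each list (vertical axis, number of genes in brackets), 1 symbol per library. The 4 lists of membrane and secreted proteins have medians between 0.64 and 1.17 in every library, and all genes read lie at 0.

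Nuclear RNA and mitochondrial RNA were also higher. Malat1 stood at 3616, 3981 and 2535 CPM against 524, 560 and 761 CPM, a log2 ratio of 2.45 ± 0.62. Kcnq1ot1 stood at 204, 157 and 169 CPM against 15.1, 12.2 and 12.5 CPM (3.63 ± 0.045), and Tug1 at 28.5, 53.2 and 27.8 CPM against 10.0, 8.91 and 12.5 CPM (1.66 ± 0.71). These were the 3 genes read of 6 found on the list, and each passed the fold, where 11.1% of all genes did as higher. Kcnq1ot1 and Tug1 were under 20 CPM in round spermatids and were read only through their level in the selected barcodes. Their passing is thus partly set by the filter and cannot be compared with that share. Kcnq1ot1 and Tug1 are annotated as antisense genes, and since the use of strand in counting is not given in the sources used here, their reads cannot be told from those of the opposite strand. Genes of the mitochondrial genome gave 1.70%, 1.63% and 2.06% of UMIs, against 0.368%, 0.363% and 0.225% in round spermatids and 1.8%, 2.07% and 1.48% in the other shallow barcodes. Genes annotated as long non-coding RNA together gave 9.76%, 9.42% and 9.67% of UMIs, against 7.21%, 7.35% and 7.53% in round spermatids.

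The 12 genes furthest above round spermatids were of several kinds. Gm48051, a long intergenic RNA, stood at 1948, 1578 and 2248 CPM against 197, 168 and 275 CPM (3.18 ± 0.14) and at a mean of 88.6 CPM in shallow barcodes with 0 marker UMIs. Gm884, a gene coding for a protein with an internal hydrophobic stretch, stood at 644, 542 and 675 CPM against 69.4, 72.1 and 85.0 CPM (3.02 ± 0.16). Ttn, the giant muscle protein titin, stood at 93.6, 62.8 and 64.9 CPM against 5.19, 4.36 and 3.61 CPM (3.78 ± 0.19), and its mean in shallow barcodes with 0 marker UMIs was 4.66 CPM. Kcnq1ot1, Gm42716, D430040D24Rik, Gm9495 and Gm7697 likewise were higher in the selected barcodes than in those with 0 marker UMIs. The other 4 were not: Lars2, the mitochondrial leucyl-tRNA synthetase, and the Sertoli cell genes Aard, Defb19 and Cst9 had means of 1043, 375, 807 and 489 CPM in shallow barcodes with 0 marker UMIs. Defb19, a defensin made by Sertoli cells, stood at 130, 171 and 130 CPM in the selected barcodes and at 13.5, 16.4 and 15.1 CPM in round spermatids. Lars2 stood at 744, 406 and 1433 CPM against 67.9, 39.1 and 132 CPM. The part of RNA shared by all shallow barcodes in these 4 genes was not tested.

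Far fewer genes were lower, and their share did not follow the classes: 0.445% of genes with a hydrophobic start and 0.448% of those with none were past the fold as lower, near the 0.468% of all genes. Idh3b, a subunit of the mitochondrial isocitrate dehydrogenase, stood at 31.4, 34.0 and 36.2 CPM against a mean of 102 CPM (-1.57 ± 0.13). Ppp1cc, the catalytic subunit of protein phosphatase 1 that male germ cells need, stood at 280, 297 and 383 CPM against 901, 967 and 872 CPM (-1.52 ± 0.29). Slc25a39, a carrier of the mitochondrial inner membrane, had a log2 ratio of -1.43 ± 0.23. Ypel3, Btbd16, 1700029F12Rik and 1700001F09Rik, with no hydrophobic stretch, lay between -1.33 and -1.50. Spcs1, Ms4a13 and Rbks were the 3 lower genes with a hydrophobic start, and 1700018L02Rik and 1700021N21Rik are antisense genes of uncertain strand.

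Counted per barcode and not as CPM, the selected barcodes held 5.73%, 6.88% and 5.31% of the UMIs of a round spermatid. Kcnq1ot1 reached 76.9%, 88.3% and 71.1% of its UMIs per round spermatid, Malat1 39.3%, 48.6% and 17.6%, and Gm48051 56.3%, 64.1% and 43.2%. Tmem190 reached 26.5%, 28.1% and 18.2%, Acrv1 22.6%, 22.5% and 13.6%, and Clgn 19.6%, 20.9% and 18.1%. Ybx3 reached 2.29%, 2.96% and 2.75%, Rpl13 3.33%, 4.04% and 4.34%, and Meig1 3.41%, 4.08% and 3.92%. The mitochondrially encoded genes together reached 26.3%, 30.7% and 48.4%. In these units none of the genes given in this paragraph reached the amount in a round spermatid. Fewer copies per cell and loss of RNA from the droplet cannot be told apart.

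Among themselves the selected barcodes differed along the same axis. Those with at least 5 Malat1 UMIs (312, 232 and 160 barcodes) had a difference between the classes of 0.92, 0.98 and 0.66, and those with 0 (159, 121 and 74 barcodes) of 0.46, 0.41 and 0.09. Barcodes with 20 or more marker UMIs had a difference of 0.97, 1.08 and 0.72, and those with 5 to 9 of 0.48, 0.53 and 0.19. The split on marker UMIs reuses the counts of the selection rule, so its values are a description only. The barcodes with at least 5 Malat1 UMIs also had Acrv1 at 2239, 2162 and 1782 CPM, against 1136, 1014 and 621 CPM in those with none. Their median depth was 2177, 2093 and 2443 UMIs against 1689, 1496 and 2404, and its part in these differences was not tested.

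The population did not end at 3000 UMIs, and its depth differed between libraries. At a fixed rate of at least 3 marker UMIs per 1000, a measure added after seeing the data, 18.1%, 16.8% and 2.08% of barcodes of 1000 to 2000 UMIs qualified, 34.9%, 20.9% and 10.3% of those of 2000 to 3000, 12.3%, 4.89% and 12.8% of those of 3000 to 5000, and 2.20%, 0.929% and 3.49% of those of 5000 to 10000. From 20000 UMIs on there were none. The knockout library was below both wildtype libraries up to 3000 UMIs. From 3000 to 5000 UMIs its exact binomial 95% interval (11% to 14.8%) overlapped that of WT1 (9.72% to 15.2%) and lay above that of WT2 (3.53% to 6.57%). Its marker-rich barcodes of 3000 to 5000 UMIs drew 14.5% of UMIs from genes with a hydrophobic start and had Malat1 at 7242 CPM, where those of 2000 to 3000 drew 13.2% and had 3187 CPM. In WT1 the deeper of these 2 steps gave 14.6% and 6615 CPM and the shallower 14.5% and 5574 CPM. In WT2 the deeper gave 13.8% and 4854 CPM and the shallower 14.2% and 6279 CPM, the opposite order.

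**Figure D5:**
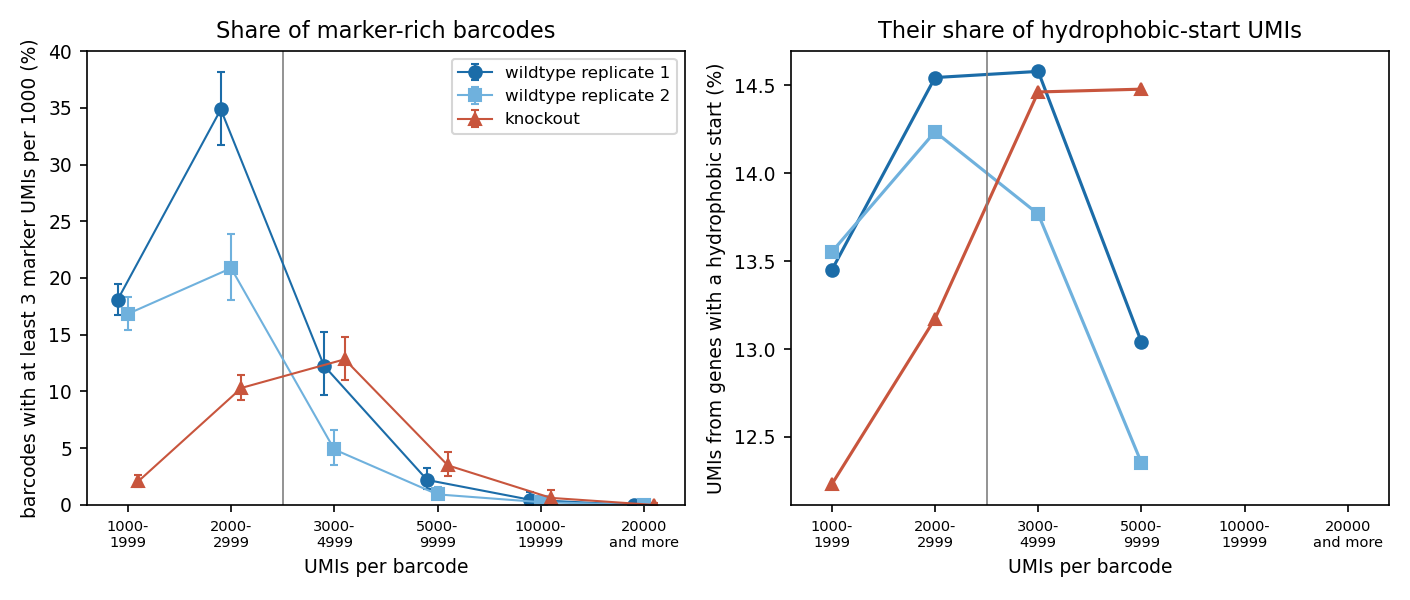
Left, share of barcodes with at least 3 marker UMIs per 1000 (vertical axis, %, with exact binomial 95% intervals) by UMIs per barcode; right, share of their UMIs from genes with a hydrophobic start (vertical axis, %, not from 0), for steps with at least 10 such barcodes. The grey line marks the upper limit of 3000 UMIs; the wildtype libraries peak below it at 34.9% and 20.9%, the knockout library above it at 12.8%.

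The share of shallow barcodes that were selected was lowest in the knockout library. It was 22.4% in WT1 (exact binomial 95% interval 21.2% to 23.7%), 18.6% in WT2 (upper bound 20%, lower 17.3%) and 8.15% in the knockout library (7.49% to 8.86%), a difference of -12.4 percentage points from the wildtype mean of a pair with an SD of 2.71. Intervals cover counting error only. Thinned to 1000 UMIs the shares were 17.0%, 14.2% and 4.41%. The lowest UMI total deposited was 908, 864 and 1381, so the knockout library held almost no barcodes under 1400 UMIs, and from 1400 UMIs on the shares were 36.3%, 25.5% and 8.35%. From 1000 to 10000 UMIs at the fixed rate they were 17.2%, 11.9% and 6.62%. Depth of the library and genotype cannot be told apart with 1 knockout library.

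Tex10 itself was low in every set. It had 34, 19 and 20 UMIs in the selected barcodes, which is 19.3 CPM (exact Poisson 95% interval 13.3 to 26.9), 16.5 CPM (9.91 to 25.7) and 16.8 CPM (10.2 to 25.9), so no difference was detectable at this depth. In round spermatids it stood at 31.8, 30.8 and 20.5 CPM. The 3′ tags need not lie in the deleted part, so this level does not check the knockout.

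Within the selected barcodes, 108 of 4189 genes with at least 50 CPM in a library (2.58%) differed between the knockout library and both wildtype libraries by at least 2-fold and by at least 2 times the gap between the wildtype libraries. Of these 18 were higher and 90 lower. Under the same rule WT1 differed from the other 2 libraries in 0 genes, and WT2 was higher in 1 and lower in 2. There the gap was that between the other wildtype library and the knockout library. The rule was thus stricter where the knockout library differed, and these counts are not on equal terms with the 108. Each count has 1 library on a side and no replicate check. The selected barcodes of the knockout library were also less rich in the selecting messages. Their median was 4.91 marker UMIs per 1000 UMIs, against 7.05 in WT1 and 6.42 in WT2. The share of marker-rich barcodes peaked above the limit of 3000 UMIs in the knockout library and below it in WT1 and WT2. The rule thus cut the population at different places, and the part of this in the 18 higher and 90 lower genes was not tested. Bloc1s6, a subunit of a complex of lysosome-related organelles, stood at 3.42, 0.872 and 70.8 CPM (6, 1 and 84 UMIs), and in round spermatids at 2.92, 2.18 and 56.6 CPM. Gm4665, an antisense gene, stood at 28.5, 25.3 and 196 CPM, and in round spermatids at 16.6, 10.7 and 194 CPM. Nckap1, a subunit of the actin-regulating WAVE complex, stood at 10.3, 9.60 and 70.0 CPM, and in round spermatids at 12.6, 14.4 and 74.9 CPM. Gm10338 stood at 9.13, 6.98 and 52.3 CPM. For each of these 4 genes the knockout library was above WT1 and WT2. Kpna1, an importin alpha, stood at 65.6, 55.8 and 2.53 CPM (3 UMIs in the knockout library), and in round spermatids at 27.8, 28 and 2.69 CPM. Rpl29, a ribosomal protein, stood at 281, 305 and 47.2 CPM, and in round spermatids at 649, 659 and 70.2 CPM, and Gm8797 at 126, 168 and 17.7 CPM against 164, 214 and 25.5 CPM there. Zfhx2, a zinc finger homeobox gene, stood at 124, 156 and 21.9 CPM, and in round spermatids, where it did not differ in this way, at 11.8, 12.6 and 14.1 CPM. Of 3514 genes read in round spermatids under the same rule, 14 were higher and 14 lower in the knockout library. Passing in both sets were 12 of the 18 higher genes and 5 of the 90 lower genes. Genes under 50 CPM in all 3 round spermatid sets, such as Zfhx2 and Kpna1, were not read there and could not pass. These 2 shares therefore do not show which genes differed only in the selected barcodes. Most of the lower genes did not pass in round spermatids, where Rpl29 and Gm8797 did. Both sets come from the same 3 libraries, so they do not check each other.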

How the data were processed

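Single-cell 3′ RNA libraries of mouse testis were made with the 10x Genomics kit of version 3.1, after collagenase IV and 70 and 40 µm strainers, per the labels' protocols. The authors deposited whole-number UMI counts for each gene in each barcode; per the file headers the matrices are output of Cell Ranger 4.0.0, and the submitters' processing notes also name Seurat 4.0.5 and mm10. Annotation and strand setting are not given in the sources used here. The selected barcodes held 1765738, 1154222 and 1193245 UMIs and the round spermatids 20266928, 24835585 and 30525148. The members and gene lists were chosen with earlier results of these data known.

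Barcodes of at least 10000 UMIs were clustered (scanpy 1.11.5, 2000 genes, 30 components, 15 neighbours, Leiden at resolution 1, leidenalg 0.10.2, no batch correction) and named from at least 3 detected markers; rebuilt names can differ from the study's. Scrublet's own threshold marked 0, 1 and 0 barcodes, so the top 8% of scores were left out of the round spermatids, and none of the selected barcodes. UMIs were summed per library and set and given as CPM without the 5 selecting genes, except for the levels of those genes, cell type markers and Tex10. Log2 ratios had 1 CPM added, which understates changes of low genes. No p-values are given: both sets were chosen from these counts and there is 1 knockout library. Hydropathy was computed from translated GENCODE M21 coding sequences (32235 of 32285 genes matched, 21386 with a protein) in place of the RefSeq proteins that were planned. The genes named were the 5 selecting genes, the 12 higher and 12 lower with the largest smallest ratio, the 3 most abundant in round spermatids of each list, 4 higher and 4 lower between genotypes, and Tex10; genes named besides were chosen after their values were seen. The rules were also run on simulated counts with known changes. These had counting error only, with no spread between libraries and no selection on marker UMIs, unlike the data.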

Additional observations from a re-analysis of the deposited data

How the results depend on the processing

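The count of 691 genes past the fold depends on the choices more than the difference of 0.68 between the classes does. It was 356 with at least 3 marker UMIs, 1338 and 156 with means of at least 5 and 100 CPM, 1803 with no filter, and 1517 at 1.5-fold. With other references it was 3282 against elongating spermatids and 1616 against shallow barcodes with 0 marker UMIs. With alternatives chosen after seeing the data it was 1042 against round spermatid clusters with at least 10 cells of every library and 167 against round spermatids with at least 3 marker UMIs per 1000, a reference of 12 barcodes that also took the difference between the classes to 0.285. Leaving out each library in turn gave 720 to 1258 genes, the most without the knockout library. The other alternatives kept the difference between 0.494 and 0.812. The share difference was -22.5 percentage points from 1400 UMIs on. The 108 genes between genotypes became 211 with at least 3 marker UMIs, 268 with at least 20 CPM in 1 library and 1292 with no filter, and 145 to 230 without a wildtype library, the most without wildtype replicate 1. None of these results reversed, and the cause of each change was not tested, apart from the number of genes that a filter admits. Of 1138 values of 61 named genes under the alternatives, 1063 kept their side of the fold, 34 passed it and 41 no longer did.

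No paired analysis was possible because the genotypes share fewer than 2 replicate numbers and no result comes from a test; the ratios to round spermatids were taken within each library throughout. Precision is limited by the 1765738 or fewer UMIs of a selected set, and for genotypes by 1 knockout library of pooled mice.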
